A study of Mus musculus with 12 samples.

Results

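The complement system was described here through 9 genes read in sorted mouse bone marrow myeloid cells. These are the genes of the chains of C1q (C1qa, C1qb and C1qc), of the components C4 and C3 (C4b and C3), of properdin (Cfp), and of 3 receptors (C3ar1, C5ar1 and Vsig4). The members were chosen by name and matched by mouse symbol to Ensembl gene identifiers, and each of the 9 was found among the 56953 genes of the count table. To place them in their pathway, another 46 complement genes were followed as a wider list.

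RNA of 12 libraries was compared, 3 for each of 4 groups. The donors were 8-week-old female C57BL/6J mice, per the study's methods of the genotype Rank cre/+;R26.eYFP fl/+. In these mice a Cre recombinase expressed from the Rank locus removes a stop before the reporter eYFP in macrophages of embryonic origin, and their progeny stay labelled. eYFP+ macrophages therefore stand for embryonic macrophages and eYFP- macrophages for those derived from adult hematopoietic stem cells, so far as the Cre recombined every embryonic cell, and both were sorted from F4/80hi bone marrow cells. The other groups were Ly6Chi and Ly6Clo monocytes, sorted by the surface protein Ly6C and named as adult cells in the sample titles. Neither the labels nor the methods used here say whether libraries of a group came from separate mice, so p-values measure the spread between these libraries, which may be technical.

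Complement is a set of plasma and membrane proteins that tag microbes, dying cells and debris for uptake. C1q recognises such surfaces and, with the proteases C1r and C1s, opens the classical pathway by cleaving C4 and C2 into a convertase of C3. C3 is the hub on which all pathways converge, properdin stabilises the convertase of the alternative pathway, and the fragments C3a and C5a signal through receptors encoded by C3ar1 and C5ar1. Most circulating complement is made by the liver, but macrophages are a main source of C1q, and myeloid cells store properdin. Vsig4 encodes CRIg, a receptor of resident macrophages for C3 fragments on opsonised particles.

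The libraries held between 26390927 and 48618187 counts. Sums of marker genes followed the labels. Summed over 6 macrophage markers (Adgre1, Vcam1, Mrc1, Mertk, Cd68 and Csf1r), TPM ranged from 13281 to 20659 in macrophage libraries and from 1835 to 3306 in monocyte libraries. TPM (transcript abundance) is the count divided by gene length and scaled to the same total in each library. Summed over 4 markers of Ly6Chi monocytes, it ranged from 7997 to 9051 in these cells and reached 325 at most elsewhere. Summed over 5 markers of Ly6Clo monocytes, it ranged from 2045 to 2239 in these cells and reached 1119 at most elsewhere. Adgre1, Vcam1 and Mrc1 encode surface proteins by which the study gated macrophages, so the macrophage sum follows in part from the sort. Vcam1 alone had a mean of 10852 TPM in macrophages. Markers of neutrophils were also high in monocyte libraries and are given with C3 below. A pair of libraries stood apart by base composition. Over the 1669 expressed genes with the highest GC content, replicate 2 of the Ly6Clo monocytes had a median log2 ratio to its group of -1.42, replicate 1 of the eYFP+ macrophages one of -0.74, and the other 10 libraries one between -0.10 and 0.37. Ly6Clo replicate 2 also had fewer genes detected (16434 against 24769 and 22254 in its group) and a higher summed TPM of 6 dendritic cell markers (2829 against 623 and 604), and 16344 normalized counts of Csf1r against 170934 and 168226. Of the 9 members, 6 have transcripts above the median GC content of expressed genes by 4 points or more. The median was 49.1%, with 53.3% for C3 and 59.5% for C1qa. Several results on the members below are therefore also given without the libraries with few GC-rich reads. Those on most genes of the wider list are not, and Ly6Clo replicate 2 had 0 counts of C1ra, Cfb and C8g.

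The sequences around the starts of C1qb, C1qc and C3 are shown because these genes had opposite patterns between the cell types. RefSeq promoter sequences, from 250 bases before to 50 bases after the gene start in the build GRCm38.p6, were at hand for 7 of the 9 members, and all were searched on both strands for short motifs of factors of the myeloid lineage. C1qb and C1qc are neighbours of C1qa on chromosome 4, with 0 genes between them. The windows are chr4:136886151-136886450 for C1qb, chr4:136892865-136893164 for C1qc and chr17:57228087-57228386 for C3, each on the minus strand and printed 5′ to 3′ along the gene. Capitals mark the matches described after them.
C1qb: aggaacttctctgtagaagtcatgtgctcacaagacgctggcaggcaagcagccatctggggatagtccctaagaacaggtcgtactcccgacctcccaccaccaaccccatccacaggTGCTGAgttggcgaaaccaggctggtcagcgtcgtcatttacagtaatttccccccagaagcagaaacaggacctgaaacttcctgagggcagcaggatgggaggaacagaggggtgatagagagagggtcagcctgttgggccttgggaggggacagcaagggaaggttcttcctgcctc
C1qc: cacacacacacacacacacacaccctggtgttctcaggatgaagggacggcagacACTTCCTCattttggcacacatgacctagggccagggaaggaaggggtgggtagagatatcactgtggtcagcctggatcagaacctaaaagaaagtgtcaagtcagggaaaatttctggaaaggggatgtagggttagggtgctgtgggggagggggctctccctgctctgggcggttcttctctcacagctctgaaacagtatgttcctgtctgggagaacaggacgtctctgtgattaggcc
C3: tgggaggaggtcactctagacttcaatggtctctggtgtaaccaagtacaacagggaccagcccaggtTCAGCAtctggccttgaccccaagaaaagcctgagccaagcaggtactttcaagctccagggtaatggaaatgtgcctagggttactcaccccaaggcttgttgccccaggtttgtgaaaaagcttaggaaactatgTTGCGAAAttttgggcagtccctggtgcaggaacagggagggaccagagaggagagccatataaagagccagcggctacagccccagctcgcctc

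The capitals in C1qb are TGCTGA, the core recognised by Maf factors, at position 120 of the window. The same letters occurred in the windows of C3 (as TCAGCA on the other strand, position 69), C3ar1 (position 107), C5ar1 (position 234) and Vsig4 (position 274), and in 19.5% of all 32851 promoter windows. C1qc held ACTTCCTC at position 56, the reverse complement of the PU.1 motif GAGGAAGT, which 3.20% of all windows hold. C3 was the only one of the 7 windows with a C/EBP motif (TTGCNNAA, found as TTGCGAAA at position 206), which 10.8% of all windows hold. Cfp had no match to these motifs, and the E-box CACGTG and the motifs searched for IRF and NF-kB factors had none in the 7 windows. They occur in 7.15%, 3.44% and 1.47% of all windows. A match of letters is a description of the window and was not tied to binding, and the count of members with a match was not tested.

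Macrophages and monocytes carried different parts of the system. In macrophages C1q and properdin were among the most abundant transcripts of the cell, whereas C3 and C5ar1, a receptor gene of C5a, were higher in monocytes. By DESeq2, 8 of the 9 members differed between the mean of both macrophage groups and the mean of both monocyte groups with an adjusted p under 0.05, 6 higher and 2 lower in macrophages, and edgeR called the same numbers. Of all 22385 genes tested, 35.4% passed this threshold, 20.3% higher and 15% lower, and edgeR called 35.6% of its genes. The libraries of the cell types did not overlap for 7 members (6 higher, 1 lower), and for 17.7% of all genes tested. The median log2 fold change of the members was 4.14, that of all genes tested 0.08. In these bulk samples fewer expressing cells and less RNA per cell cannot be told apart.

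**Figure D1:**
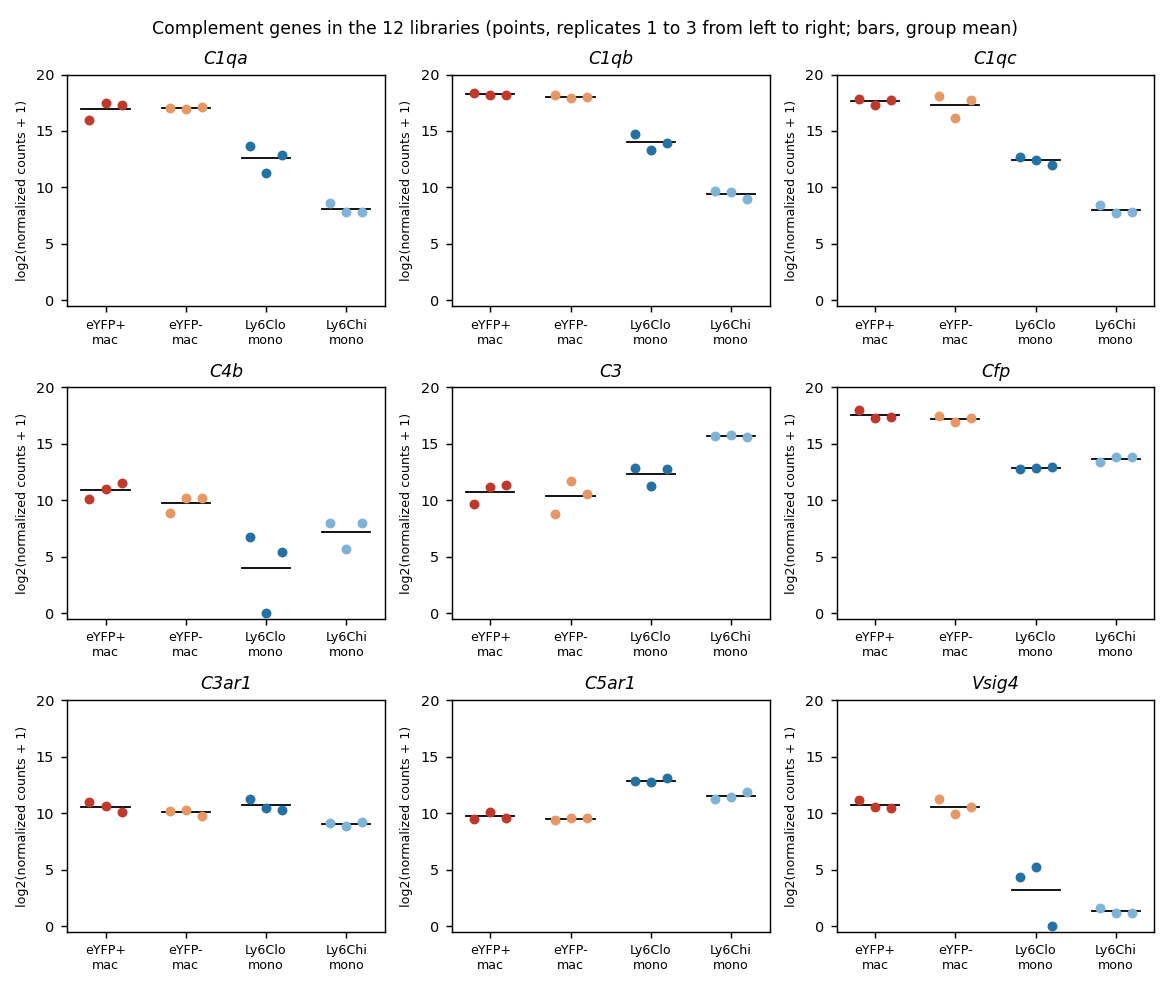
Normalized counts of the 9 complement genes on a log2(count + 1) axis in each of the 12 libraries, by group (red and orange, eYFP+ and eYFP- macrophages; dark and light blue, Ly6Clo and Ly6Chi monocytes). Points are replicates 1 to 3 from left to right and bars the mean of the 3 logged values. C1q, properdin and Vsig4 were highest in both macrophage groups, C3 in Ly6Chi monocytes and C5ar1 in Ly6Clo monocytes.

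C1qb, which encodes the B chain of C1q, was the third most abundant gene in both macrophage groups by mean TPM (rank 3 of 14147 genes above 1 TPM in eYFP+ and of 14389 in eYFP- macrophages). Its normalized counts, which are counts divided by the size factor of the library, were 338390, 303147 and 298043 in eYFP+ macrophages and 307091, 244059 and 264436 in eYFP- macrophages. They were 27701, 10438 and 15376 in Ly6Clo monocytes and 837, 766 and 518 in Ly6Chi monocytes. The macrophage libraries overlapped with each other and with no monocyte library, and the monocyte groups were apart as well. The difference of macrophages from monocytes was 6.36 ± 0.26 on the log2 scale (SE, adjusted p = 1.9e-124 by DESeq2), 82.2-fold with a 95% interval from 57.3 to 118.

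C1qa, the gene of the A chain, followed the same order. It had 65003, 177927 and 159891 normalized counts in eYFP+ macrophages, 136911, 128678 and 142433 in eYFP- macrophages, 12685, 2434 and 7303 in Ly6Clo monocytes and 399, 228 and 231 in Ly6Chi monocytes. The lowest macrophage value and the lowest Ly6Clo value belonged to the libraries with few GC-rich reads. The log2 difference between macrophages and monocytes was 6.53 ± 0.39 (DESeq2 adjusted p = 2.01e-60), and 6.44 without these libraries.

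C1qc, the gene of the C chain, had 234654, 163965 and 219593 normalized counts in eYFP+ macrophages, 286849, 70627 and 218220 in eYFP- macrophages, 6708, 5657 and 4175 in Ly6Clo monocytes and 346, 214 and 224 in Ly6Chi monocytes. Here eYFP- replicate 2 was the low macrophage library, still above each monocyte library. C1qc differed by 7.37 ± 0.33 between the cell types on the log2 scale (DESeq2 adjusted p = 1.98e-105). Of all TPM, the 3 genes together made up 3.02% ± 0.37 (SD, n = 3) in the eYFP+ group, 2.80% ± 0.40 (n = 3) in the eYFP- group, 0.139% ± 0.0751 (n = 3) in the Ly6Clo group and 0.00551% ± 0.00135 (n = 3) in the Ly6Chi group.

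A C1q molecule holds its A, B and C chains in equal number, and the TPM of their genes were compared within each library. C1qb was the highest of the 3 genes in each of the 12 libraries. The ratio of C1qb to C1qa was 4.98 in eYFP+ replicate 1 and 4.10 in Ly6Clo replicate 2, the libraries with few GC-rich reads, and between 1.63 and 3.21 in the other 10. The ratio of C1qc to C1qa was 3.12 and 2.01 in these libraries. It was 0.797 and 1.19 in the other eYFP+ libraries, 1.81, 0.474 and 1.32 in eYFP- macrophages, 0.457 and 0.494 in the other Ly6Clo libraries and between 0.750 and 0.837 in Ly6Chi monocytes. The transcript of C1qa has the highest GC content of the 9 members (59.5%, against 57.4% for C1qb and 57.5% for C1qc), and its part in these ratios was not tested.

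**Figure D2:**
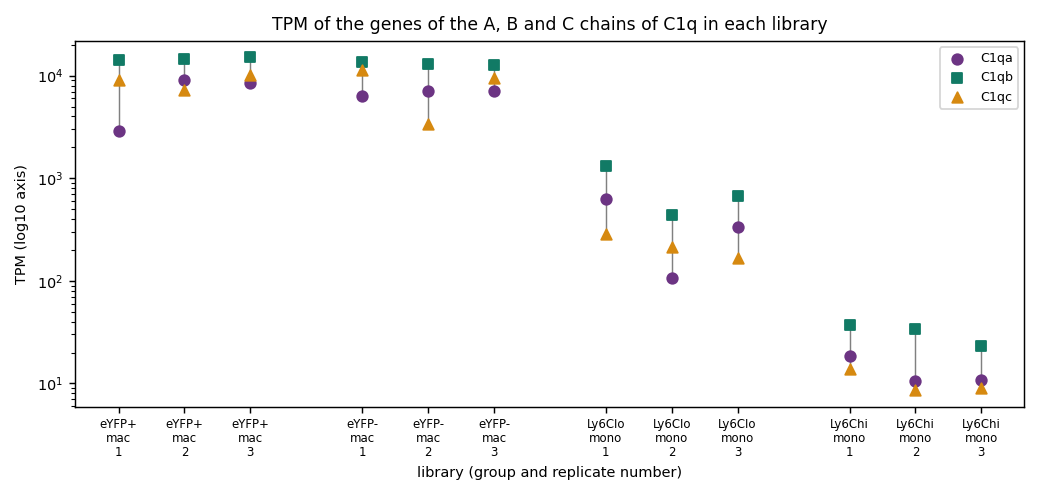
TPM of C1qa (circles), C1qb (squares) and C1qc (triangles) on a log10 axis in each of the 12 libraries, with a line joining the genes of a library. C1qb was the highest of the 3 in each library, and the gap to C1qa was widest in eYFP+ replicate 1 (4.98-fold) and Ly6Clo replicate 2 (4.10-fold).

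C4b encodes C4, which C1s cleaves once C1q has bound. It was scarce next to C1q, at 19.8 TPM ± 10.3 (SD, n = 3) in eYFP+ and 9.23 TPM ± 4.49 (n = 3) in eYFP- macrophages. Normalized counts were 1121, 1989 and 2961 in eYFP+ macrophages, 462, 1162 and 1146 in eYFP- macrophages, 248, 49.8 and 249 in Ly6Chi monocytes and 107, 0 and 40.6 in Ly6Clo monocytes. Each macrophage library was above each monocyte library, and the log2 difference was 3.85 ± 0.67 (DESeq2 adjusted p = 8.93e-08, edgeR adjusted p = 0.00192). The 0 came from Ly6Clo replicate 2, a library with few GC-rich reads, and the difference was 3.66 without both such libraries. C4b has a near-identical copy, C4a, and only pairs assigned without ambiguity were counted, so reads shared by both were lost.

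C3 went the other way. Its normalized counts were 53358, 57134 and 50368 in Ly6Chi monocytes, 7436, 2532 and 7199 in Ly6Clo monocytes, 824, 2290 and 2636 in eYFP+ macrophages and 432, 3351 and 1543 in eYFP- macrophages. The Ly6Chi libraries were far above the rest, and eYFP- replicate 2 was above Ly6Clo replicate 2, so the cell types overlapped. C3 was lower in macrophages by a log2 difference of -3.25 ± 0.46 (DESeq2 adjusted p = 3.39e-11), a 9.50-fold difference with a 95% interval from 5.06 to 17.8. At 504 TPM it ranked 314 among the genes of Ly6Chi monocytes, against 19.7 TPM and 19.1 TPM in eYFP+ and eYFP- macrophages. In the 3 eYFP- libraries the summed TPM of 10 neutrophil markers was 208, 2551 and 735, in the same order as their C3 counts. In the eYFP+ libraries it was 207, 131 and 121 and did not follow C3. In the monocyte libraries the markers summed to between 15736 and 23797 in Ly6Chi and between 6778 and 16006 in Ly6Clo cells. Granule genes were among them, with a mean over the 6 monocyte libraries of 2326 TPM for Ngp, 1826 TPM for Camp and 345 TPM for Ltf. Whether this RNA came from monocytes or from neutrophils and their precursors in the sort was not tested, nor was its part in the values of C3 or of the other genes higher in monocytes, C5ar1, Fcnb and Itgam among them.

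The balance of recognition to effector component therefore differed between the groups. The summed TPM of the C1q genes divided by the TPM of C3 lay between 1189 and 3542 in eYFP+ macrophages and between 623 and 7760 in eYFP- macrophages. It lay between 17.6 and 33.7 in Ly6Clo monocytes and between 0.0901 and 0.139 in Ly6Chi monocytes. Only in Ly6Chi monocytes was C3 the more abundant transcript, and there it was so in all 3 libraries.

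Cfp, the gene of properdin, was the most abundant member outside C1q in macrophages, at 6093 TPM (rank 19) in eYFP+ and 4961 TPM (rank 23) in eYFP- macrophages. It had 259123, 159168 and 173452 normalized counts in eYFP+ macrophages, 176951, 129156 and 161854 in eYFP- macrophages, 10560, 14586 and 14883 in Ly6Chi monocytes and 6784, 7329 and 8141 in Ly6Clo monocytes. The cell types were well apart, with a log2 difference of 4.14 ± 0.20 (DESeq2 adjusted p = 5.92e-90), 17.6-fold with a 95% interval from 13.4 to 23.2. Monocytes still carried 393 TPM (Ly6Chi) and 219 TPM (Ly6Clo) of Cfp.

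The receptors did not move together. C5ar1, which encodes a receptor of the anaphylatoxin C5a, was lower in macrophages. Its normalized counts were 726, 1066 and 752 in eYFP+ and 662, 763 and 746 in eYFP- macrophages. It had 2417, 2835 and 3821 in Ly6Chi and 7160, 6908 and 8854 in Ly6Clo monocytes. No macrophage library reached a monocyte library, and the log2 difference was -2.62 ± 0.20 (DESeq2 adjusted p = 6.03e-38). C3ar1, the receptor gene of C3a, had 1971, 1626 and 1077 normalized counts in eYFP+ macrophages, 1178, 1212 and 875 in eYFP- macrophages, 554, 459 and 595 in Ly6Chi monocytes and 2480, 1401 and 1280 in Ly6Clo monocytes. Its macrophage values lay between those of the monocyte groups or among those of Ly6Clo cells, and the log2 difference of 0.44 ± 0.25 did not pass the test (DESeq2 adjusted p = 0.178, 95% interval of the log2 difference from -0.06 to 0.94). Without Ly6Clo replicate 1, the library highest in C3ar1, it was 0.61 with a DESeq2 adjusted p of 0.0278.

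Vsig4 was nearly confined to the macrophage libraries. Normalized counts were 2237, 1508 and 1363 in eYFP+ macrophages and 2401, 980 and 1504 in eYFP- macrophages, against 19.5, 36.2 and 0 in Ly6Clo monocytes. The 3 Ly6Chi libraries held 4 counts in all. With those 4 counts divided by the summed size factors of the 3 libraries, the macrophage mean was 1078 times the Ly6Chi level, with an interval from 421 to 3957 that covers the Poisson error of those 4 counts alone. Over both monocyte groups the fitted log2 difference was 8.29 ± 0.65 (DESeq2 adjusted p = 2.12e-35). At 60.0 TPM and 58.1 TPM in eYFP+ and eYFP- macrophages it was the most abundant of the 3 receptors there.

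**Figure D3:**
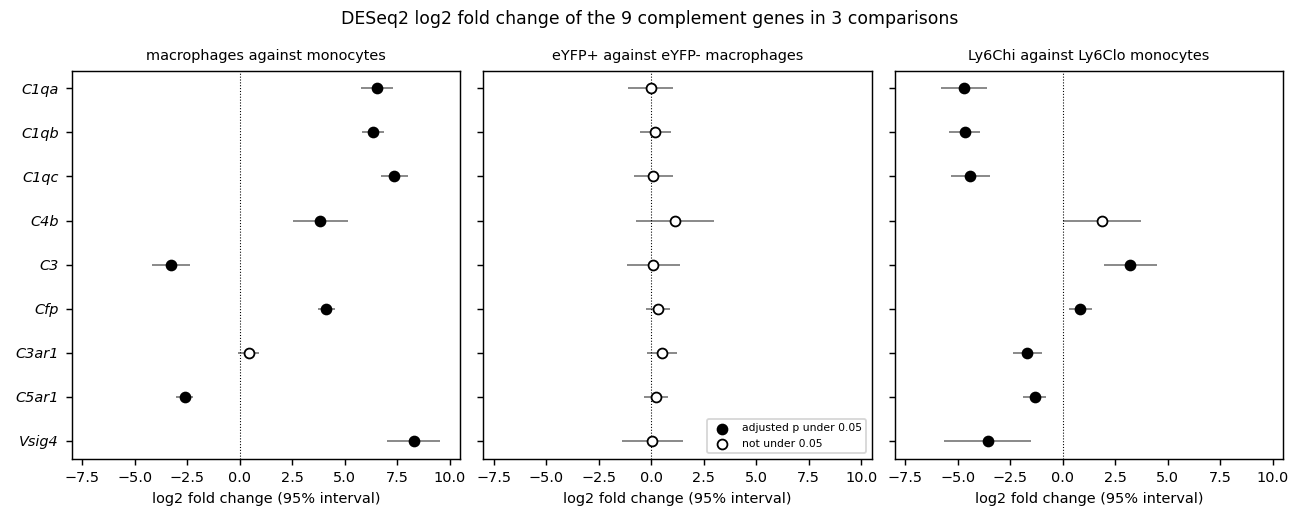
Log2 fold changes of the 9 complement genes by DESeq2 in 3 comparisons, with 95% intervals as lines. Filled points have an adjusted p under 0.05. Macrophages differed from monocytes in 8 genes, Ly6Chi from Ly6Clo monocytes in 8, and eYFP+ from eYFP- macrophages in 0.

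Whether the origin of a macrophage goes with its complement genes was asked by comparing eYFP+ with eYFP- macrophages. None of the 9 members passed the test. DESeq2 called 0 of 9 at an adjusted p under 0.05 and edgeR 0 of 9, and at an unadjusted p under 0.05 the count was 0 with either tool. Of the 21567 genes tested, 2.04% passed DESeq2's adjusted threshold (0.334% of the genes tested by edgeR), and 8.77% an unadjusted p under 0.05 (7.42% by edgeR). The groups overlapped for each member, whereas they did not overlap for 15.2% of the genes tested.

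The intervals say how large a difference these libraries left possible. For C1qb the log2 difference was 0.20 ± 0.37, with a 95% interval of the fold from 0.693 to 1.91. For C1qa the interval ran from 0.467 to 2.09, for C1qc from 0.567 to 2.03, for Cfp from 0.857 to 1.87, for C5ar1 from 0.799 to 1.72 and for C3ar1 from 0.880 to 2.33. It was wider for C3 (0.444 to 2.63), Vsig4 (0.376 to 2.90) and C4b (0.610 to 7.88). C4b had the largest estimate, a log2 difference of 1.13 ± 0.94 (DESeq2 adjusted p = 0.939). The sign for C1qa, C1qc, C3 and Vsig4 changed when a single library was left out.

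Ly6Chi and Ly6Clo monocytes differed in 8 of the 9 members by DESeq2, against 8.62% of all 21567 genes tested (3.66% higher and 4.97% lower in Ly6Chi cells). C1q, C3ar1 and C5ar1 were higher in Ly6Clo cells and C3 was higher in Ly6Chi cells. Of the 8, 2 were higher and 6 lower in Ly6Chi monocytes, and edgeR called 1 higher and 5 lower, with 4.32% of its genes called. The libraries did not overlap for 7 members, and for 28.1% of all genes. The members' median log2 difference was -1.68, that of all genes 0.02. The monocyte libraries serve in this comparison and in that with macrophages, so the counts of both share samples.

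C1qa was lower in Ly6Chi than in Ly6Clo monocytes by a log2 difference of -4.71 ± 0.55 (DESeq2 adjusted p = 5.22e-15), C1qb by -4.66 ± 0.38 (DESeq2 adjusted p = 2.98e-32) and C1qc by -4.40 ± 0.47 (DESeq2 adjusted p = 5.97e-18). As folds, Ly6Clo exceeded Ly6Chi cells 26.1 times for C1qa, 25.2 times for C1qb and 21.1 times for C1qc, and the libraries did not overlap for any of the 3. Without Ly6Clo replicate 1, the library highest in each of them, the log2 difference of C1qa was -4.09. In Ly6Clo monocytes C1qb stood at 809 TPM ± 448 (SD, n = 3) and rank 165, against 31.3 TPM ± 7.46 (n = 3) and rank 4006 in Ly6Chi monocytes.

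Since macrophages hold so much C1q, its level in monocytes was set beside that of other genes that are high in macrophages. In Ly6Clo monocytes the mean of C1qa was 5.53% of the macrophage mean, that of C1qb 6.10% and that of C1qc 2.77%. For the adhesion molecule Vcam1 the share was 0.603%, for Fcna, the gene of ficolin A, 0.787%, for the efferocytosis receptor Mertk 1.24% and for Vsig4 1.11%. For the mannose receptor Mrc1 it was 2.86% and for Adgre1, which encodes F4/80, 38.8%. Vcam1, Mrc1 and Adgre1 all encode proteins by which the study gated macrophages. The remaining markers of the macrophage list, Cd68 and Csf1r, stood at 85.3% and 131%. Without both libraries with few GC-rich reads the share was 52.2% for Cd68 and 0.629% for Vsig4, and the shares of the other genes moved by less than 1.5 times. C1qa and C1qb were thus above Vcam1, Fcna, Mertk, Vsig4 and Mrc1 and below Adgre1, Cd68 and Csf1r, and C1qc was close to Mrc1. In Ly6Chi monocytes the shares were 0.212%, 0.242% and 0.131% for C1qa, C1qb and C1qc, beside 0.154% for Vcam1, 0.110% for Fcna, 0.345% for Mertk and 0.803% for Mrc1. Mertk and Mrc1 were thus above all 3 C1q genes there. Within Ly6Clo monocytes, Vcam1 had 4628, 2125 and 6516 normalized counts, Mrc1 4918, 1929 and 2021 and Mertk 674, 6.70 and 412. The order of Mrc1 and Mertk over the libraries was that of C1qa and C1qb, whereas that of Vcam1 was not, and C1qc (6708, 5657 and 4175) followed none of the 3. How much of the C1q RNA in monocyte libraries came from macrophages in the sort was not tested.

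**Figure D4:**
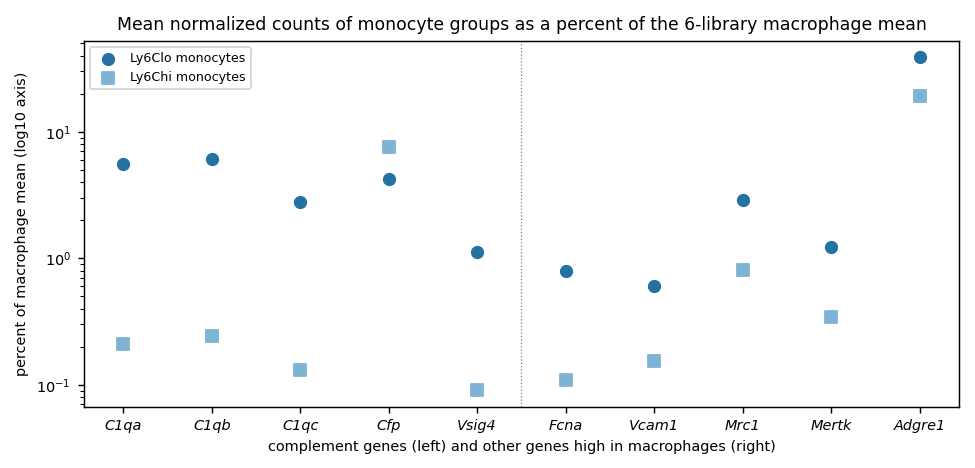
Mean normalized counts in Ly6Clo (circles) and Ly6Chi monocytes (squares) as a percent of the mean of the 6 macrophage libraries, on a log10 axis, for complement genes (left of the dotted line) and for other genes high in macrophages (right). In Ly6Clo monocytes C1qa and C1qb lay at 5.53% and 6.10%, Vcam1 and Fcna at 0.603% and 0.787%.

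C3 was higher in Ly6Chi than in Ly6Clo monocytes by 3.23 ± 0.65 on the log2 scale (DESeq2 adjusted p = 4.42e-05, edgeR adjusted p = 0.0241), 9.37-fold with a 95% interval from 3.85 to 22.8, and by 2.87 without the libraries with few GC-rich reads. C3ar1 differed by -1.68 ± 0.36 (DESeq2 adjusted p = 1.33e-04) and C5ar1 by -1.34 ± 0.28 (DESeq2 adjusted p = 8.56e-05), so Ly6Clo monocytes held 3.21 and 2.53 times the level of Ly6Chi monocytes. By TPM, C3ar1 was below C5ar1 in each monocyte library, at a ratio between 0.0853 and 0.204, whereas in macrophages the ratio lay between 0.692 and 1.60.

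The calls for Cfp and Vsig4 were weak. Cfp was higher in Ly6Chi monocytes by 0.85 ± 0.29 on the log2 scale (DESeq2 adjusted p = 0.04, edgeR adjusted p = 0.0637) without overlap. The call was lost on leaving out 8 of the 12 libraries in turn, with DESeq2 adjusted p up to 0.203, and with a correction for GC content the difference was 0.21 (DESeq2 adjusted p = 0.838). Vsig4 was lower by -3.58 ± 1.06 (DESeq2 adjusted p = 0.0134, edgeR adjusted p = 0.119), but rested on 23, 27 and 0 counts in the Ly6Clo libraries, which overlapped with the 2, 1 and 1 counts of Ly6Chi cells. Leaving out any Ly6Chi library or Ly6Clo replicate 2 ended that call, with DESeq2 adjusted p between 0.0561 and 0.0686. C4b did not pass (1.88 ± 0.95, DESeq2 adjusted p = 0.236), although without Ly6Clo replicate 1 the difference was 3.15 with a DESeq2 adjusted p of 0.0217.

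Ordered by the mean of the groups, the 9 members gave 27 pairs of neighbouring groups, of which 15 differed by DESeq2 and 12 by edgeR. Of all genes tested, 24.5% and 28% were called by DESeq2 for eYFP+ macrophages against Ly6Chi and Ly6Clo monocytes, and 27.4% and 26.3% for eYFP- macrophages. For each of the C1q genes the macrophage groups did not differ from each other, the lower macrophage group was above Ly6Clo monocytes (DESeq2 adjusted p = 1.33e-12 for C1qa, 9.72e-24 for C1qb and 1.87e-25 for C1qc), and these were above Ly6Chi monocytes. For C3 the order was Ly6Chi, Ly6Clo, eYFP+ and eYFP-, and Ly6Clo monocytes did not pass against eYFP+ macrophages (log2 difference 1.58 ± 0.65, DESeq2 adjusted p = 0.0556). For C5ar1 it was Ly6Clo, Ly6Chi, eYFP+ and eYFP-, with Ly6Chi monocytes above eYFP+ macrophages by 1.83 ± 0.28 (DESeq2 adjusted p = 1.27e-09). For C3ar1 the neighbours among Ly6Clo monocytes, eYFP+ and eYFP- macrophages did not differ beyond their spread, and eYFP- macrophages were above Ly6Chi monocytes by 1.02 ± 0.36 (DESeq2 adjusted p = 0.0201). For C4b, eYFP- macrophages were above Ly6Chi monocytes by 2.34 ± 0.94 (DESeq2 adjusted p = 0.0485, edgeR adjusted p = 0.116).

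The wider list of 46 complement genes was read in the same fits, and 25 of them reached a group mean of 1 TPM. Between macrophages and monocytes 36 were tested and 19 called, 15 higher and 4 lower in macrophages (edgeR, 14 higher and 4 lower of 32), beside the 35.4% of all genes. Their median log2 difference was 0.82, against 0.08 over all genes tested. By role, 5 of 9 tested initiators were called, 3 of 4 convertase parts, 2 of 5 terminal components, 5 of 11 regulators and 4 of 7 receptors.

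Among the initiators, the partners of C1q were uneven. C1ra, the gene of the protease C1r, was higher in macrophages, with 1125, 1275 and 1287 normalized counts in eYFP+ and 808, 864 and 1329 in eYFP- macrophages against 0 to 155 in monocytes (log2 difference 3.91 ± 0.51, DESeq2 adjusted p = 2.95e-13). C1s1, the gene of the protease C1s, stayed below 0.481 TPM in each group mean. C1rl, a C1r-like protease gene, had 11.4 TPM in both macrophage groups and in Ly6Chi monocytes and 2.05 TPM in Ly6Clo monocytes. The ficolins, which start the lectin pathway, differed in direction. Fcna, the gene of ficolin A, reached 7948 TPM in eYFP+ and 6677 TPM in eYFP- macrophages, whereas Fcnb, the gene of ficolin B, reached 300.04 TPM in Ly6Chi monocytes. Fcna was higher in macrophages by 8.40 ± 0.22 and Fcnb lower by a log2 difference of -5.36 ± 1.27 (DESeq2 adjusted p = 1.49e-04). In eYFP- macrophages Fcnb had 224 normalized counts in replicate 2 and 3.65 and 10.9 in the others, and replicate 2 was also the highest in neutrophil markers. The genes of the mannose-binding lectins and their proteases (Mbl1, Mbl2, Masp1 and Masp2) stayed below 0.113 TPM.

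Of the convertase parts, C2, whose product joins C4 in the classical convertase, was higher in macrophages by 5.75 ± 0.33 (DESeq2 adjusted p = 1.36e-67), with 540, 586 and 759 normalized counts in eYFP+ and 366, 425 and 378 in eYFP- macrophages against 2.68 to 14.2 in monocytes. Cfb, the gene of factor B of the alternative pathway, did not pass between the cell types (0.46 ± 0.50, DESeq2 adjusted p = 0.533). It was higher in Ly6Chi monocytes, where C3 was highest, at 323, 240.5 and 298 normalized counts against 29.7, 0 and 23.4 in Ly6Clo monocytes (3.99 ± 0.72, DESeq2 adjusted p = 2.64e-06). Cfd, the gene of factor D, which cleaves factor B, was listed with 0 counts in all 3 Ly6Chi libraries and had 8.22 to 46.0 normalized counts in macrophages and 9.34, 57.6 and 7.11 in Ly6Clo monocytes, of which replicate 2 was above each macrophage library. Of the terminal components that form the membrane attack complex, C6 was higher in macrophages (635, 276 and 423 in eYFP+, 318, 135 and 311 in eYFP- macrophages, 0 to 10.9 in monocytes). C8g, the gene of the gamma chain of C8, was the most abundant of them by TPM. Its group means were 15.4 in eYFP+ and 15.9 in eYFP- macrophages, 9.23 in Ly6Chi and 6.42 in Ly6Clo monocytes. The Ly6Clo libraries held 9.17, 0 and 10.1 TPM, the 0 in the replicate with few GC-rich reads. C8g did not pass between the cell types (log2 difference 0.92 ± 0.68, DESeq2 adjusted p = 0.313). Hc, C7, C8a, C8b and C9 stayed below 0.198 TPM in each group mean, C8a being called lower in macrophages at these near-absent levels (DESeq2 adjusted p = 0.0328, edgeR adjusted p = 0.0657).

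Of the 11 regulators tested 4 were higher in macrophages, all of them guards of the cell's own membrane. Cd55, the gene of decay-accelerating factor, had 4728, 3591 and 3952 normalized counts in eYFP+ and 2560, 2061 and 2324 in eYFP- macrophages, against 4.86 to 22.3 in Ly6Chi and 48.2 to 110 in Ly6Clo monocytes (log2 difference 6.49 ± 0.32, DESeq2 adjusted p = 5.26e-91). Cd59a, whose product blocks the membrane attack complex, differed by 6.21 ± 0.57 (DESeq2 adjusted p = 6.86e-26). Their paralogs Cd55b and Cd59b were called in the same direction, and how far reads shared within a pair affect their counts was not tested. Cd55 and Cd59a were also lower in Ly6Chi than in Ly6Clo monocytes, by -2.74 ± 0.48 and -4.65 ± 0.96 (DESeq2 adjusted p = 1.15e-06 and 6.78e-05). Cr1l, the gene of the regulator Crry, was expressed in each group (46.2 to 84.8 TPM) and did not pass in any of the 3 comparisons.

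Of the 7 other receptors tested, 3 were called higher and 1 lower in macrophages by the contrast of mean log levels. The higher ones were Itgax (log2 difference 1.19 ± 0.32, DESeq2 adjusted p = 0.00108), C1qbp, whose product binds the globular heads of C1q (0.75 ± 0.21, DESeq2 adjusted p = 0.00149), and Calr, the gene of calreticulin (0.82 ± 0.29, DESeq2 adjusted p = 0.0169). Taken group by group, none of the 3 was called higher in either macrophage group than in Ly6Clo monocytes. C1qbp passed against Ly6Chi monocytes only, and against Ly6Clo monocytes its log2 difference was 0.09 ± 0.30 for eYFP+ (DESeq2 adjusted p = 0.865) and 0.71 ± 0.30 for eYFP- macrophages (DESeq2 adjusted p = 0.0578). Calr passed against neither monocyte group taken singly, with log2 differences from 0.77 to 0.88 and DESeq2 adjusted p from 0.103 to 0.162. C5ar2, another receptor gene of C5a, was not called between the cell types. It had means of 874 normalized counts in macrophages and 482 in monocytes, and the libraries overlapped (417 to 1463 and 110 to 800). Itgb2, the shared beta subunit of the iC3b receptors, was lower in macrophages by -1.04 ± 0.15 (DESeq2 adjusted p = 1.6e-11). Itgam, the alpha subunit of CR3, had 20.1 to 200 normalized counts in macrophages against 2287 to 9971 in monocytes. For Itgam an outlying count left DESeq2 without an adjusted p, and that of edgeR was 1.45e-05. Itgax, the alpha subunit of CR4, had 5409, 1817 and 4329 normalized counts in Ly6Clo monocytes, 234, 83.8 and 177 in Ly6Chi monocytes and between 1324 and 2133 in macrophages. Its call as higher in macrophages thus held against Ly6Chi cells only: the mean of the monocyte libraries was 2009 and that of the macrophage libraries 1833, and against Ly6Clo monocytes the log2 difference was -0.93 ± 0.45 for eYFP+ (DESeq2 adjusted p = 0.114) and -1.22 ± 0.45 for eYFP- macrophages (DESeq2 adjusted p = 0.0308). It was lower in Ly6Chi monocytes by -4.54 ± 0.46 (DESeq2 adjusted p = 2.45e-20). In that comparison 9 of the 34 tested genes of the wider list were called, 4 higher (C1rl, Fcnb, Cfb and C6) and 5 lower (Fcna, Cfd, Cd55, Cd59a and Itgax), beside 8.62% of all genes, and edgeR called 2 higher and 5 lower.

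**Figure D5:**
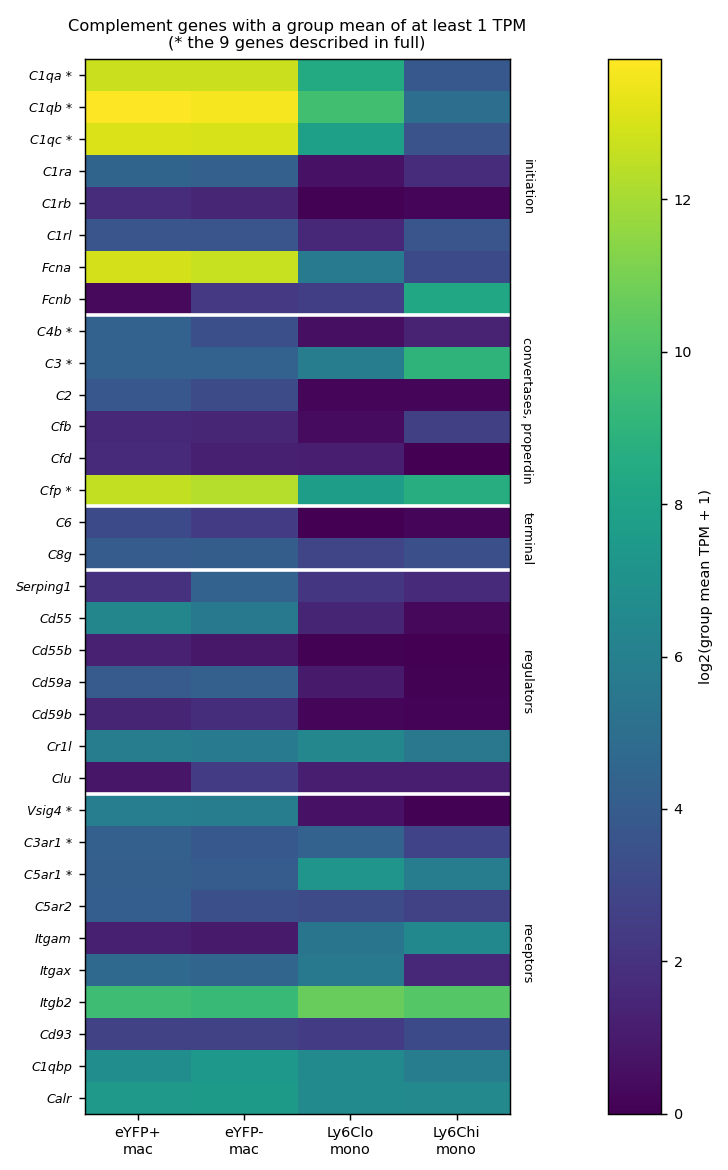
Group means of the 9 members (starred) and of wider-list genes that reached 1 TPM in a group, as log2(TPM + 1), with genes in rows by role and groups in columns. C1q, Fcna and Cfp were brightest in both macrophage columns, C3, Fcnb and Itgam in the Ly6Chi column.

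Between eYFP+ and eYFP- macrophages 1 of the 34 tested genes of the wider list was called by DESeq2, beside 2.04% of all genes, and 6 had an unadjusted p under 0.05. edgeR called 0 of 32, with 4 at an unadjusted p under 0.05.

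Serping1, the gene of the inhibitor of C1r and C1s, was lower in eYFP+ macrophages in each library, with 134, 83.9 and 88.8 normalized counts against 1029, 315 and 716, but did not pass the test (log2 difference -2.75 ± 1.05, DESeq2 adjusted p = 0.228). Ly6Chi monocytes had 240, 4.86 and 2.43. The summed TPM of 8 stromal and endothelial markers differed in the same direction between these groups, at 11.0 to 20.3 in eYFP+ and 51.7 to 98.1 in eYFP- macrophages, and at 47.2 in Ly6Chi replicate 1 against 2.11 and 4.31 in the other Ly6Chi libraries. By replicate, the markers summed to 11.0, 20.3 and 12.1 in eYFP+ macrophages and to 63.5, 51.7 and 98.1 in eYFP- macrophages. In eYFP- macrophages replicate 2 was lowest in both. Within each macrophage group the library highest in Serping1 was not the highest in the markers. Serping1 had 123, 182 and 90.4 normalized counts in Ly6Clo monocytes, where the markers summed to 23.4, 3.45 and 22.4. The part of these markers in the Serping1 values was not tested. Markers of erythroid cells also differed between the macrophage groups (summed TPM of 8 markers from 389 to 429 in eYFP+ and from 837 to 1124 in eYFP- macrophages), and their relation to complement genes was not tested.

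Genes whose pattern was most like that of a member were found by Pearson's r over the 12 libraries on the deposited variance-stabilised counts among 10688 genes. These r describe differences shared by 4 groups and carry no test. For C1qb they were Asb2 (r = 0.997), Serpinb6a (0.993) and Cadm1 (0.992), for C1qa Asb2 (0.991), Rgs1 (0.987) and Cat (0.986), and for C1qc Ifi27 (0.994), Blnk (0.994) and Nr1h3 (0.991). Cfp was most like Cpq (0.995), Tbxas1 (0.994) and Eva1a (0.993), and Vsig4 most like Cbr2 (0.995), Hcar2 (0.992) and Fam213b (0.992). C4b went with Sdc3 (0.981), Batf2 (0.980) and Siglec1 (0.977). On log2 TPM none of the 3 genes named for Vsig4 or for C4b stayed among the 3 most like it, whereas 2 or 3 did for each other member. C3 was most like Clec16a (0.984), Sp3 (0.976) and Slc2a9 (0.974), C5ar1 most like Rassf5 (0.987), Cyp2ab1 (0.985) and Trem1 (0.978), and C3ar1, the member with the weakest likeness, most like Tmem176a (0.935), Adgrv1 (0.914) and Ehf (0.910).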

How the data were processed

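According to the methods, paired reads of amplified full-length cDNA were trimmed, error-corrected, cleared of ribosomal RNA, aligned with segemehl to GRCm39 and counted with featureCounts on exons of Ensembl genes. The deposited counts are whole read pairs assigned without ambiguity, with the use of strand not given in the sources used here. The deposited TPM, used here for levels between genes, divide counts by gene length. A deposited table of variance-stabilised counts, close to a log2 scale, was used for the likeness between genes and for the check of the replicate numbers. No molecular identifiers were described, so intervals from counts cover counting error only.

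The main test was DESeq2 (1.42.0, under R 4.3.3), which the methods name: 1 fit over 12 libraries with group as the only factor, Wald tests, Benjamini-Hochberg over all genes tested, adjusted p under 0.05. edgeR 4.0.16 (quasi-likelihood) was the alternative, given where it changes a call, besides limma 3.58.1 on TPM, other scalings and filters, a GC correction, a replicate block and leaving out each library. Tests were tried on simulated data. Symbols came from the GENCODE M21 table, which matched 91.4% of identifiers, 9 of 9 members and 46 of 46 list genes; GC content came from its longest transcripts. No exon of a member overlapped another gene there. The members, lists and tests were chosen with earlier results of these data known. Named genes are the members, list genes with a group mean of at least 1 TPM, and the 3 genes most like each member among those with a mean of at least 50 normalized counts; list genes below 1 TPM are given as limits. A gene of the wider list that follows this rule is not reported here.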

Additional observations from a re-analysis of the deposited data

How the results depend on the processing

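The count of members called stayed within 1.5 times its value under each alternative run, and leaving out each library in turn gave 8 to 9 for macrophages against monocytes, 0 for eYFP+ against eYFP- macrophages and 6 to 8 for Ly6Chi against Ly6Clo monocytes. The pairs of neighbouring groups that differed ranged from 11 to 15. The wider list's count for eYFP+ against eYFP- macrophages, 1 in the report, was 0 with edgeR, 3 in a fit on the 6 libraries alone, 1 to 3 on leaving out each library and 4 without both libraries with few GC-rich reads, an alternative chosen after seeing the data. Not called in any setting, the log2 difference between the macrophage groups changed sign for C3 (-0.013) and Vsig4 (-0.033) with total-count scaling, for C1qa (0.12) and Vsig4 (-0.012) with the GC correction, and for C1qa (0.31), C1qc (-0.011) and Vsig4 (-0.19) without both libraries. Leaving out each library, it ranged from -0.27 to 0.31 for C1qa, from -0.30 to 0.51 for C1qc, from -0.35 to 0.95 for C3 and from -0.20 to 0.46 for Vsig4. The cause was not tested. The intervals of the members between the macrophage groups give the differences that these libraries leave possible.

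Whether the replicate numbers of the titles pair the libraries is not known, and they were treated as unpaired because not every same-numbered pair correlated above 0.1. Same-numbered libraries of the macrophage groups correlated at 0.368, 0.205 and 0.072 in their deviations from the group, and those of the monocyte groups at 0.146, 0.0579 and 0.0452. Of 6 macrophage libraries 4 correlated best with their own number in the other group, and of 6 monocyte libraries 6. With the replicate block the wider list's count for eYFP+ against eYFP- macrophages was 3, the log2 difference of C1qa was 0.051, and calls over all genes went from 439 to 1155.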
